A study of Mus musculus with 2 samples.

Results

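Collagen genes were described in RNA from neonatal mouse epidermis as all rows of the gene table whose symbol is exactly Col, a number, the letter a and a number. Col17a1, the transmembrane collagen of hemidesmosomes, was left out. The rule found 43 genes of 23183, and it used symbols alone, not measured values. They were grouped by textbook class into 11 fibrillar, 9 basement membrane, 9 network and 9 fibril-associated collagens. The remaining 5, which belong to none of these classes, were kept as transmembrane or other collagens.

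The study compared 1 library from wild-type C57BL/6 epidermis (WT) with 1 library from C57BL/6 epidermis homozygous for the Foxn1 allele L19M (L19M), both neonatal and both poly(A)-selected. Foxn1 encodes a forkhead regulator active in skin keratinocytes and in the thymus, and the design asked about keratinocyte function in the 2 genotypes. The sources used here do not give how many animals each library holds, their sex or their exact age. With 1 library per genotype no test between genotypes was possible, no p-value is given, and every difference compares these 2 libraries without a replicate check.

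Collagens are secreted or membrane proteins in which a trio of chains winds into a rope-like helix. Fibrillar collagens build the tensile fibres of the dermis, where fibroblasts make them. Type IV collagen forms the sheet of basement membranes, including the one under the epidermis and those around vessels, and type VII collagen ties the epidermal basement membrane to the dermis below. Fibril-associated collagens sit on the surface of fibres, and network collagens such as type VI form fine filaments or lattices.

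Levels are deposited as FPKM (fragments divided by transcript length and library size), so levels can be set side by side between genes. Depth was estimated from the steps in low values at 14149597 fragments for WT and 19212447 for L19M. Ranges given after a level or ratio are 95% counting intervals made from the estimated fragments of each gene. They cover counting error only and not the spread between animals. A gene was measured when its mean over both libraries reached 1 FPKM, and it was called higher or lower when it was also at least 2-fold apart on the scale log2(FPKM + 1), L19M minus WT. The RNA of Foxn1 itself stood at 3.74 FPKM (WT) and 5.44 FPKM (L19M), and an RNA level cannot show whether the protein is altered.

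The labelled tissue was checked against markers. All 12 keratinocyte markers, Cdh1 at 67.5 and 54.2 FPKM among them, were measured, with a summed level of 27881 FPKM in WT against 27791 in L19M. Markers of dermal cells were present as well, at lower levels. Of 14 fibroblast markers 13 were measured, summing to 424 FPKM in WT against 591 in L19M. Of that sum Vim, the intermediate filament gene of mesenchymal cells, held 258 FPKM in WT against 423 in L19M. Without Vim, a split made after its values were seen, the fibroblast markers summed to 166 and 169 FPKM. Of 11 endothelial markers 10 were measured, summing to 25.2 FPKM in WT against 39.0 in L19M. Neither library had a defining marker of either list at 0. Adipocyte and skeletal muscle markers were present too, summing to 409 and 241 FPKM in WT against 312 and 272 in L19M. In such bulk RNA, fewer cells of a type and less RNA per cell cannot be told apart.

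Collagen RNA as a whole was of similar amount in both libraries. The 43 genes summed to 799 FPKM in WT against 844 in L19M, which was 0.0943% and 0.104% of each library's FPKM total. Of the 43 genes, 23 were measured and 20 lay below 1 FPKM. None of the 23 was called at 2-fold, beside 0.532% of all 11841 measured genes called higher and 1.71% called lower. The median log2 ratio of the 23 was 0.04, against 0.0049 for all measured genes. Of the 23, 14 lay above 0 and 9 below, and 4 of those 9 (Col5a2, Col5a3, Col6a2 and Col23a1) moved above 0 when the FPKM totals of the libraries were made equal. The counting interval of the plain FPKM ratio lay above 1 for 11 of 23 members (47.8%) and below 1 for 5 (21.7%), beside 23.1% and 24.4% of measured genes with a fragment estimate. Such an interval compares the reads of 2 libraries and is narrow for genes with many fragments, as several collagens have.

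**Figure D1:**
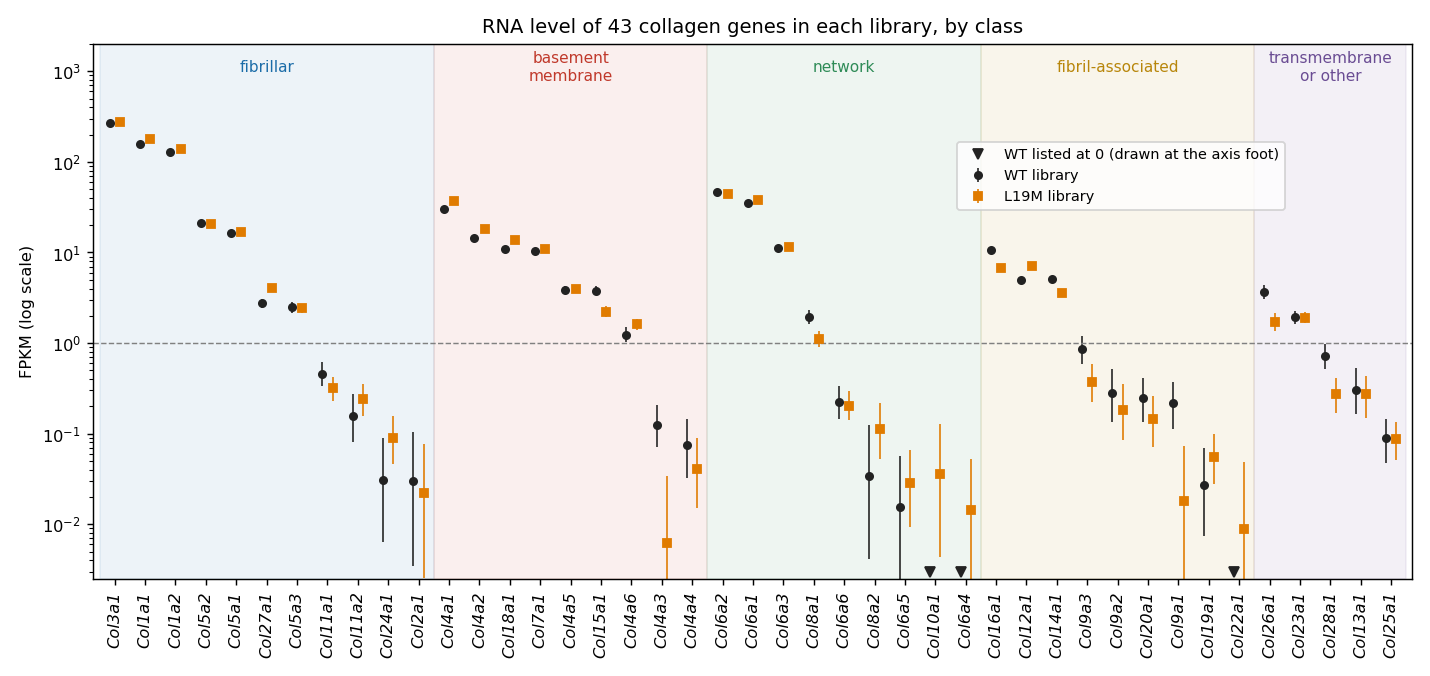
FPKM (log axis) of each of the 43 collagen genes in the WT library (black circles) and the L19M library (orange squares), ordered by mean level within class, with 95% counting intervals as bars. The dashed line marks 1 FPKM, and triangles mark the 3 genes listed at 0 in WT. Col3a1, Col1a1 and Col1a2 stand above 100 FPKM and the points of most measured genes nearly touch.

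Fibrillar collagens made up 75% of collagen FPKM in WT and 75.6% in L19M. Col3a1 (Entrez 12825, plus strand of chromosome 1, 45311538 to 45349706, mm10), the chain of type III collagen, which is plentiful in young skin, was the most abundant collagen. It had 268 FPKM in WT against 278 in L19M, from 20348 and 28550 estimated fragments, and ranked 328th and 301st among all genes. Col1a1 (plus strand of chromosome 11, 94936270 to 94951856) encodes the main chain of type I collagen, the bulk protein of dermis. It stood at 158 FPKM in WT against 177 in L19M, a ratio of 1.12 (1.10 to 1.15). Its partner chain Col1a2 (plus strand of chromosome 6, 4505697 to 4541543) had 130 and 139 FPKM, a ratio of 1.07 (1.04 to 1.10). All 3 were slightly higher in L19M, by more than counting error at these depths.

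Type V collagen, which joins type I fibrils and limits their width, was at nearly the same level in both libraries. Col5a1 had 16.5 FPKM in WT against 16.8 in L19M, and Col5a2 had 21.0 and 20.8 FPKM. The third chain gene, Col5a3, had 2.50 and 2.42 FPKM. All 3 ratio intervals held 1, the widest being that of Col5a3 (0.805 to 1.16). Col5a2 lies next to Col3a1 on chromosome 1, at 45374331 to 45503282 on the other strand.

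Col27a1, a fibrillar collagen known from cartilage, was the measured fibrillar gene furthest from equality. It had 2.76 FPKM in WT against 4.06 in L19M, a ratio of 1.47 (1.28 to 1.70) from 290 and 579 estimated fragments. Its log2 ratio of 0.43 was under the 2-fold rule. The other 4 fibrillar genes, known mainly from cartilage or bone, were below 1 FPKM in both libraries. Col11a1 had 0.460 and 0.317 FPKM, Col11a2 0.157 and 0.241 FPKM, and Col24a1 0.0306 and 0.0901 FPKM. Col2a1, the main cartilage collagen, had 2 estimated fragments in each library. All 4 intervals held a ratio of 1. Over the 7 measured fibrillar genes the median log2 ratio was 0.05, and the summed FPKM of all 11 was 599 (WT) against 638 (L19M), a ratio of 1.07 (1.05 to 1.08).

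Among basement membrane collagens, 6 of 7 measured members had log2 ratios above 0 and 1 lay below, with a median of 0.22. Of all measured genes 50.8% lay above 0. The most abundant were Col4a1 and Col4a2, whose chains form the type IV collagen found in nearly all basement membranes. Col4a1 had 30.3 FPKM in WT against 36.6 in L19M, a ratio of 1.21 (1.15 to 1.27). Col4a2 had 14.3 and 18.1 FPKM, a ratio of 1.26 (1.18 to 1.36). L19M was the higher library for both chains, and neither interval held 1.

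Col4a1 (minus strand of chromosome 8, 11198423 to 11312826) and Col4a2 (plus strand, 11312829 to 11449287) lie head to head, and their deposited starts are 3 bases apart. The following 30 bases of that shared start region are shown because this gene pair differed alike. They are RefSeq sequence of GRCm38.p6, plus strand, chr8:11312763-11312792, shortly before the start of Col4a2 and inside the deposited Col4a1 locus, with CCAAT in capitals.
Col4a1 and Col4a2 start region: gaggagctccCCAATttgttggcgctgccc
CCAAT on either strand was in the 250 bases before the start of 34.5% of 27025 RefSeq genes and of 11 of the 34 collagen genes with an entry (32.4%). A match of letters is a description and not a binding site.

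The other type IV chains also lie in head to head pairs and were less abundant. Col4a5 and Col4a6 on chromosome X encode chains found together in the epidermal basement membrane. Col4a5 had 3.86 FPKM in WT against 3.91 in L19M, a ratio of 1.01 (0.878 to 1.17). Col4a6 had 1.24 and 1.62 FPKM, a ratio of 1.3 (1.03 to 1.66). Col4a3 and Col4a4 on chromosome 1, whose chains are known from the kidney filter, were below 1 FPKM in both libraries. Col4a3 had 15 estimated fragments in WT against 1 in L19M, which is a ratio of 0.0491 (0.00117 to 0.319), and Col4a4 had 8 and 6. The interval of Col4a3 lay below 1, while that of Col4a4 held 1.

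Col7a1 (plus strand of chromosome 9, 108953745 to 108984875), the anchoring fibril collagen made largely by keratinocytes, had 10.3 FPKM in WT against 11 in L19M. The ratio of 1.08 had an interval, 1.0 to 1.15, that barely cleared equality.

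Types XV and XVIII are sister collagens of the basement membrane zone, each with an endostatin-like end, and they stood on opposite sides of equality. Col18a1 had 10.8 FPKM in WT against 13.8 in L19M, a ratio of 1.27 (1.17 to 1.38). Col15a1 had 3.78 and 2.22 FPKM, a ratio of 0.587 (0.489 to 0.703), and a log2 ratio of -0.57. Because this pair diverged, the 100 bases before each RefSeq start are shown, with the GC box GGGCGG on either strand in capitals (GRCm38.p6). Col18a1 is on the minus strand at chr10:77166531-77166630 and Col15a1 on the plus strand at chr4:47207912-47208011.
Col18a1: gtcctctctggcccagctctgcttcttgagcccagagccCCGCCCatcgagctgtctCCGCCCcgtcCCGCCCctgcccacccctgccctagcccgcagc
Col15a1: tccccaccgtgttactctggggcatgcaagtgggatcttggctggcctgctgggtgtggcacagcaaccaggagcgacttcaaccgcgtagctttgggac
The GC box was in the 250 bases before the start of 32.9% of all RefSeq genes in the table, of 21 of the 34 collagen genes (61.8%), and of 13 of the 18 measured ones (72.2%). Of the 16 members below the floor 8 had it (50%). Its share over all measured genes was not computed, so the 72.2% has no matched share beside it. Measured members with the box included Col18a1, higher in L19M, and Col16a1 and Col8a1, lower in L19M. The absence of the box from the Col15a1 stretch says only that these letters are not there.

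Summed over all 9 basement membrane genes, FPKM was 74.8 (WT) against 87.3 (L19M), a ratio of 1.17 (1.13 to 1.20). Markers of vessel cells, which also make type IV, XV and XVIII collagen, were higher in L19M. All 10 measured endothelial markers had log2 ratios above 0 with a median of 0.46, led by Plvap (1.83 and 4.01 FPKM) and Lyve1 (1.74 and 3.54 FPKM), then Esam (1.33 and 2.72 FPKM) and Emcn (1.86 and 3.30 FPKM), and none was called. Among other basement membrane proteins (laminins, nidogens, perlecan, agrin and peroxidasin), 12 of 14 measured genes lay above 0, with a median of 0.19 and none called. Lama4, a laminin chain of vessels, had 1.77 and 2.67 FPKM. Lama3, a laminin chain of epidermis, had 4.05 and 5.51 FPKM, and Agrn, agrin, had 12.8 and 15.8 FPKM. Keratinocyte markers split into 6 above 0 and 6 below, with a median of 0.02. Among them the basal keratinocyte regulator Trp63 had 55.5 and 82.5 FPKM, and the hemidesmosomal integrin chains Itga6 and Itgb4 had 21.8 and 30.3 FPKM and 10.1 and 12.4 FPKM, while Krt5, the basal keratin, was nearly level with a ratio of 1.04 and Cdh1 was lower with a ratio of 0.803. The part of vessel cells or basal keratinocytes in the collagen values was not tested.

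**Figure D2:**
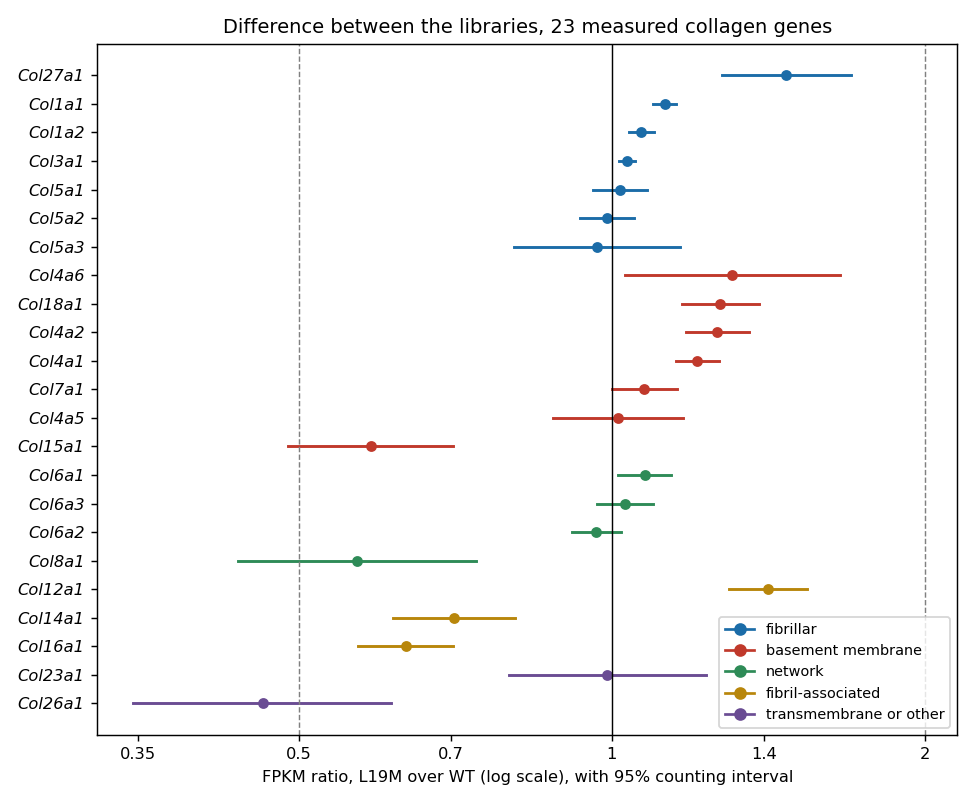
FPKM ratio of L19M over WT (log axis) for the 23 measured collagen genes, coloured by class, with 95% counting intervals as bars. The solid line marks equality and the dashed lines 2-fold either way; Col26a1 at 0.462 is the single point beyond a dashed line, and Col27a1 at 1.47 and Col12a1 at 1.41 are furthest to the right.

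The network class was carried by type VI collagen, which forms beaded filaments around cells, and these chains were nearly level. Col6a2 had 46.2 FPKM in WT against 44.7 in L19M. Col6a1 had 35.5 and 38.2 FPKM, and Col6a3, the long chain, 11.3 and 11.6 FPKM. Their ratios were 0.966 (0.915 to 1.02), 1.08 (1.01 to 1.14) and 1.03 (0.967 to 1.10). Col6a1 and Col6a2 lie in tandem on the minus strand of chromosome 10. The chains that can replace Col6a3, encoded in a row on chromosome 9, were scarce. Col6a6 had 0.225 and 0.204 FPKM, Col6a5 had 2 and 5 estimated fragments, and Col6a4 was listed at 0 in WT with 2 fragments in L19M.

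Col8a1 encodes a short-chain collagen of vessel walls and of the membrane beneath the corneal endothelium, and it stood apart from type VI. It had 1.96 FPKM in WT against 1.11 in L19M, a ratio of 0.569 (0.437 to 0.740) from 136 and 105 estimated fragments. Col8a2, its partner, had 2 and 9 fragments with an interval that held 1. Pericyte and smooth muscle markers were lower in 5 of 7 measured members, summing to 44.2 FPKM in WT against 37.7 in L19M, with none called and none at 0. Tagln had 10.1 and 6.70 FPKM, Rgs5 5.64 and 3.87 FPKM, Myh11 1.3 and 0.815 FPKM, and Mcam 12.8 and 11.7 FPKM. Their part in the value of Col8a1 was not tested. Col10a1, the collagen of hypertrophic cartilage, was listed at 0 in WT, which allows up to 0.0725 FPKM at 3 fragments, and had 2 fragments in L19M. Its locus lies within that of Nt5dc1 on the opposite strand, and although the library kit keeps strand, the sources used here do not say whether counting used it. The class median was -0.0046 over 4 measured genes, and the class sum was 95.3 FPKM in WT against 96.0 in L19M.

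The measured fibril-associated genes stood on both sides of equality, and no interval held 1. Col12a1, whose product binds type I fibrils and is known from tissues under tension, had 5.02 FPKM in WT against 7.09 in L19M, a ratio of 1.41 (1.3 to 1.54). Col14a1, a close relative on the same fibrils, had 5.05 and 3.56 FPKM, a ratio of 0.706 (0.617 to 0.808). Col16a1, found near the junction of epidermis and dermis, had 10.7 and 6.80 FPKM, a ratio of 0.633 (0.570 to 0.704). In WT Col12a1 and Col14a1 were level, while in L19M Col12a1 was the higher of them.

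Type IX collagen, the fibril-associated collagen of cartilage, had low values in all 3 chains. Col9a3 had 0.856 FPKM in WT against 0.375 in L19M, a ratio of 0.438 (0.235 to 0.797) from 32 and 19 estimated fragments. Col9a1 had 12 fragments in WT and 1 in L19M, and Col9a2 had 10 and 9. The intervals of Col9a1 and Col9a3 lay below 1 and that of Col9a2 held it. The end of Col9a3 overlaps Tcfl5 on the opposite strand (0.847 and 0.313 FPKM), so fragments of these genes may not be separable. Cartilage cell markers were nearly absent. Of 9 matched, Sox9 alone was measured (13 and 12.2 FPKM), Matn1 and Ucma were at 0 in both libraries, and Chad, Hapln1 and Matn3 were at 0 in WT. In L19M Chad had 1 fragment, Matn3 had 2 and Hapln1, a cartilage link protein, had 22 (0.236 FPKM). Hapln1 was the cartilage marker whose interval excluded 1, and it was higher in L19M, opposite to Col9a1 and Col9a3. Acan, the cartilage proteoglycan, had 4 and 3 fragments.

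The last fibril-associated genes were Col20a1 (14 and 11 estimated fragments), Col19a1 (4 and 11) and Col22a1 (0 and 1), each with an interval that held 1. The median over the 3 measured genes of the class was -0.41, and the sum over all 9 was 22.4 FPKM in WT against 18.2 in L19M, a ratio of 0.813 (0.764 to 0.865). Without Col16a1, the most abundant member, the ratio of sums was 0.978.

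Of the transmembrane or other collagens, Col26a1 was the member with the largest difference among all 23 measured. This secreted collagen had 3.70 FPKM in WT against 1.71 in L19M, a ratio of 0.462 (0.346 to 0.613) from 131 and 82 estimated fragments. Its log2 ratio of -0.79 was past 1.5-fold, as was the -0.59 of Col16a1, beside 4.07% of measured genes lower and 1.99% higher by that rule, but missed the 2-fold rule because of the pseudocount of 1. With a pseudocount of 0.1 it was -1.07, and Col26a1 was then called lower. Col23a1, a transmembrane collagen known from epidermis, was level at 1.93 and 1.91 FPKM. Col28a1, a type VI relative known from around peripheral glia, had 0.720 FPKM in WT against 0.272 in L19M, a ratio of 0.378 (0.212 to 0.654). Schwann cell and melanocyte markers summed to 172 FPKM in WT against 109 in L19M. Of 7 measured, 4 lay below 0 and 3 above, and none was at 0. Of the 7, 1 was called lower (Tyrp1, 15.8 and 5.08 FPKM), beside 1.71% of all measured genes. The pigment genes Pmel and Dct had 48.9 and 26.0 FPKM and 93 and 60.2 FPKM. Sox10, a regulator of both cell types, had 4.25 and 7.01 FPKM. The part of these cells in the value of Col28a1 was not tested. The transmembrane genes Col13a1 (0.306 and 0.272 FPKM) and Col25a1 (0.0888 and 0.0866 FPKM) were low in both libraries.

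Across the 20 members below 1 FPKM, 4 ratio intervals lay below 1 and none above. Those 4 were Col4a3, Col9a1, Col9a3 and Col28a1, or 20% of the 20, beside 6.53% below and 5.71% above among other genes under the floor with FPKM above 0. They rest on 41 or fewer estimated fragments in either library.

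Level ratios between partner chains were next compared within each library, since they are free of the scaling between libraries. Col1a1 stood at 1.21 times Col1a2 in WT (1.18 to 1.25) and 1.28 times in L19M (1.25 to 1.31), with intervals that met at their edges. Col4a1 was 2.11 times Col4a2 in WT (1.98 to 2.26) and 2.02 times in L19M (1.92 to 2.13). Col5a1 over Col5a2 was 0.786 and 0.808, and Col6a3 over Col6a1 was 0.318 and 0.304. Col4a5 over Col4a6 was 3.11 in WT (2.51 to 3.89) and 2.42 in L19M (2.04 to 2.87). Col6a1 over Col6a2 was 0.769 in WT (0.723 to 0.817) and 0.856 in L19M (0.812 to 0.901). The intervals of the libraries overlapped in each of these partner pairs, but such overlap does not show that the ratios were equal. The change of a ratio between the libraries was given no interval of its own.

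The partner pairs of scarce chains had wide intervals that also overlapped. Col4a3 over Col4a4 was 1.7 in WT (0.675 to 4.62) and 0.151 in L19M (0.00328 to 1.24). Col9a1 over Col9a2 was 0.791 in WT (0.307 to 2.0) and 0.0976 in L19M (0.00163 to 0.517), and Col9a3 over Col9a2 was 3.08 (1.48 to 7.02) and 2.03 (0.876 to 5.10). These rest on 32 or fewer estimated fragments per gene.

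Further ratios set side by side genes of separate molecules. Col3a1 over Col1a1 was 1.70 in WT (1.66 to 1.74) and 1.57 in L19M (1.54 to 1.6). Col12a1 over Col14a1 was 0.994 in WT (0.884 to 1.12) and 1.99 in L19M (1.79 to 2.22). Col18a1 over Col15a1 was 2.87 in WT (2.50 to 3.30) and 6.22 in L19M (5.39 to 7.20). In these 3 pairs the intervals of the libraries did not overlap. For Col3a1 over Col1a1, with its many fragments, that holds although the ratios were closer than those of Col4a5 over Col4a6.

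**Figure D3:**
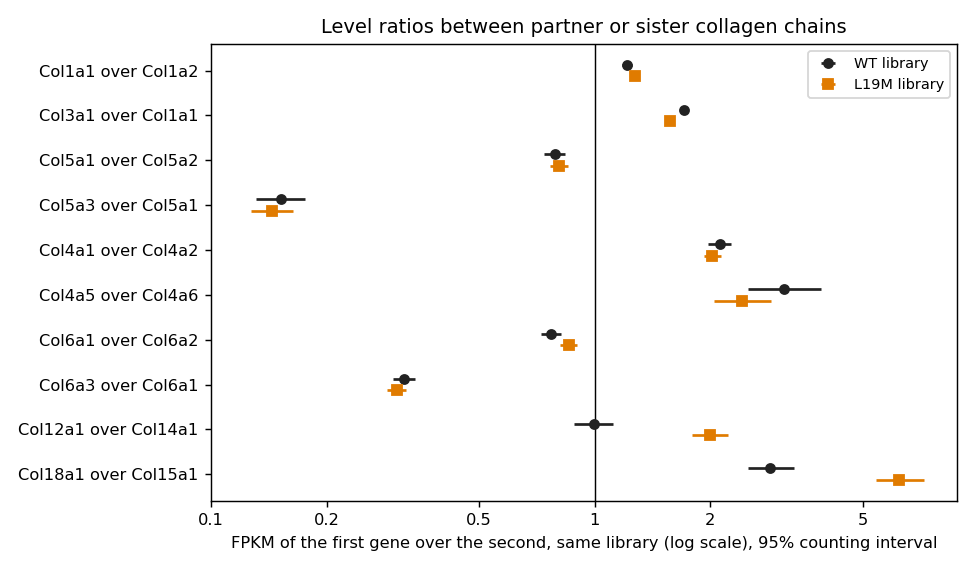
FPKM of one collagen gene over another in the same library (log axis), for WT (black circles) and L19M (orange squares), with 95% counting intervals as bars. The points of Col12a1 over Col14a1 (0.994 and 1.99) and of Col18a1 over Col15a1 (2.87 and 6.22) lie furthest apart, with intervals that do not overlap. Those of Col4a5 over Col4a6 (3.11 and 2.42) are next, with intervals that overlap. The points of Col3a1 over Col1a1 (1.70 and 1.57) are closer, but their narrow intervals do not overlap. Pairs with Col4a3 or type IX genes, which had few fragments, are not drawn.

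Genes that make, process and bind collagen gave no 2-fold call either, beside 0.532% of all measured genes called higher and 1.71% called lower. Of all measured genes 50.8% had log2 ratios above 0. Of 19 measured folding and modification enzymes, 9 lay above 0 and 10 below, with a median log2 ratio of -0.00086. Serpinh1, the collagen chaperone, had 91.6 FPKM in WT against 68.7 in L19M, a ratio of 0.751 (0.712 to 0.791), while its most abundant clients Col3a1 and Col1a1 had ratios of 1.03 and 1.12. The lysyl hydroxylases Plod1 (4.71 and 7.37 FPKM) and Plod3 (5.54 and 7.07 FPKM) were higher in L19M, and Sec23a, of the export coat, had 11.2 and 9.33 FPKM. Of 7 measured genes of processing and crosslinking, 4 lay above 0, with a median of 0.02. Lox, which crosslinks collagen, had 6.28 and 11.3 FPKM and Loxl2 7.52 and 8.77 FPKM. The propeptidase Adamts14 had 4.44 and 3.21 FPKM and the enhancer Pcolce 11.2 and 8.70 FPKM.

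Small proteoglycans and other fibril partners spread widely, with 9 of 13 measured genes above 0, beside 50.8% of all measured genes, and a median of 0.20. Lum (46.7 and 29.6 FPKM) and Postn (182 and 119 FPKM) were lower in L19M, and Thbs1 (3.72 and 6.15 FPKM) and Omd (12.3 and 18.3 FPKM) higher. Of 10 measured genes of collagen degradation and its inhibitors, 6 lay above 0 with a median of 0.04. Of 8 list members below the floor of 1 FPKM, 3 had ratio intervals above 1 and none below. The shares among all genes under the floor with FPKM above 0 were 5.71% above and 6.53% below. Those 3 were the metalloproteinases Mmp3 (3 and 25 fragments), Mmp8 (2 and 30) and Mmp9 (2 and 18). The other members below the floor had intervals that held 1. The inhibitors Timp1 (1.45 and 2.85 FPKM) and Timp3 (15.0 and 9.39 FPKM) stood on opposite sides, and Fap (1.47 and 0.772 FPKM) was lower. Timp4 had 1.34 and 0.734 FPKM from 23 and 17 estimated fragments, with an interval that held 1. Among collagen receptors 3 of 10 were measured, the discoidin receptors Ddr2 (2.29 and 3.19 FPKM) and Ddr1 (22.1 and 19 FPKM) and the integrin chain Itgb1 (46.2 and 42.2 FPKM), with a median of -0.13.

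**Figure D4:**
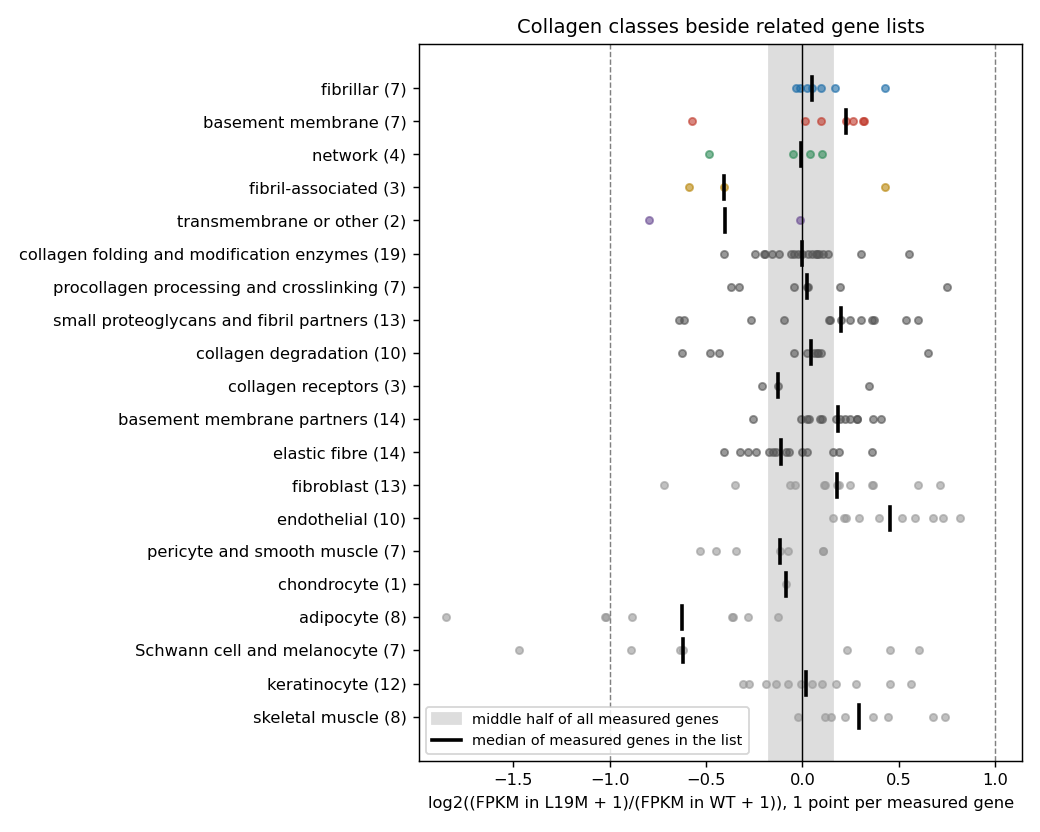
Log2 ratio of L19M over WT with a pseudocount of 1 for every measured gene (points) of the 5 collagen classes, 7 related lists and 8 marker lists, with the number of measured genes in brackets. Black bars mark list medians, the grey band the range between the quartiles of all measured genes (-0.17 to 0.16) and dashed lines 2-fold; the basement membrane median of 0.22 lies just right of the band and the fibril-associated median of -0.41 left of it.

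Fibroblast markers, set beside the fibrillar genes, had 9 of 13 measured members above 0 and a median of 0.18. The share above 0 over all measured genes was 50.8%. Besides Vim, those furthest from 0 were Dpp4 (10.3 and 5.85 FPKM), Pdgfrb (1.02 and 2.06 FPKM) and Thy1 (18.3 and 24.0 FPKM). Adipocyte markers, from another source of type IV, V, VI and XV collagen in skin, had all 8 measured members below 0. They summed to 409 FPKM in WT against 312 in L19M. Of the 8, 3 were called lower, beside 1.71% of all measured genes. Those 3 were Retn (29.2 and 7.39 FPKM), Plin4 (1.79 and 0.375 FPKM) and Plin1 (6.15 and 2.52 FPKM). Adipoq had 15.5 and 7.95 FPKM. Lep, below the floor, had 4 estimated fragments in WT (0.0926 FPKM) and 0 in L19M, with an interval that held 1. Skeletal muscle markers had 7 of 8 measured members above 0, summing to 241 and 272 FPKM, with none called and Myh3 (0.647 and 1.75 FPKM) and Tnnt1 (0.861 and 1.98 FPKM) foremost, followed by Ckm (14.3 and 19.9 FPKM) and Tnnt3 (26.5 and 34.4 FPKM). The part of these cells in the collagen values was not tested.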

How the data were processed

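The 2 RNA-seq libraries of neonatal epidermis, 1 per genotype, were grouped by the labels. The authors deposited FPKM per gene (columns headed as raw data), transcript lengths, quantile-normalized log2 values per the file headers, and a linear fold (a ratio of L19M over WT). Cufflinks, edgeR and R 3.5.1 are named without a role, per the submitters' processing notes, and the sources used here name no aligner. The information sheet names mm10 and the notes GRCm39. Of the 43 collagen genes, 43 started within 5000 bases of their GRCm38 RefSeq gene, and coordinates, counted from 1, are therefore called mm10.

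Fragments were estimated from low FPKM values, which step as 1 fragment over library total and transcript length less a constant (205 bases in WT, 210 in L19M). Of such values, 84.0% and 83.5% fell within 0.1 of a whole number of up to 20 fragments. Exact 95% Poisson intervals were used for levels and Clopper-Pearson intervals for ratios. Sums have normal-approximation intervals. PCR copies are not independent molecules. The steps were tested on simulated data with Python 3.11.15, pandas 2.3.3 and scipy 1.17.1.

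The members, classes and lists were chosen with earlier results of these data known. Every collagen gene is named, with the 4 measured genes of each other list furthest from a log2 ratio of 0. Some genes that this rule takes are not reported here. Genes outside that rule are named after their values were seen (Acan, Hapln1, Matn3, Chad, Matn1, Ucma, Lep, Sox10, Krt5, Mmp3, Mmp8, Mmp9, Nt5dc1, Tcfl5). Cnmd and Snorc were found in no row. Promoter sequences are from RefSeq (GRCm38.p6), with an entry for 34 of 43 members, and the first entry was used where a gene had several.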

Additional observations from a re-analysis of the deposited data

How the results depend on the processing

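No paired analysis was possible because each genotype has 1 library. The count of lower collagen genes, 0, became 1 (Col26a1, log2 ratio -1.07) with a pseudocount of 0.1, 1 with the plain FPKM ratio (-1.11, chosen after seeing the data) and 2 at 1.5-fold (Col26a1 and Col16a1, or 1 in each of their classes), beside 4.07% of measured genes lower and 1.99% higher at 1.5-fold. No collagen gene was called higher under any setting run. Without the filter on low values the basement membrane median fell from 0.22 to 0.095. The fibril-associated median was then -0.13 and the transmembrane or other median -0.039, both from genes with few fragments. These medians lay inside the range between the quartiles of all measured genes (-0.17 to 0.16). That range is not a matched one, since it leaves out genes below the floor, whose log2 ratios the pseudocount draws towards 0. No such range was computed without the filter. Without type VI the network median was -0.48, the value of Col8a1 alone. Rescaling to equal FPKM totals, added after seeing the data, multiplied L19M values by 1.04 and gave ratios of sums of 1.10 over all members, 1.11 fibrillar, 1.22 basement membrane and 1.05 network. It also moved the log2 ratios of Col5a2, Col5a3, Col6a2 and Col23a1 across 0. Without its most abundant member the ratio of sums was 1.07 over all members, 1.09 fibrillar, 1.05 network, 0.978 fibril-associated and 0.834 transmembrane or other. Of 311 alternative values 290 were counted as the same. For the 161 values of single genes this meant an unchanged 2-fold call, even where the sign changed. Counts had to stay within 1.5-fold, and medians and sums within ranges made from counting error. Some settings could not change a value, so this share does not measure how stable the results are. At this depth a transcript of 2000 bases with no fragment could stand at up to 0.118 FPKM in WT against 0.0872 in L19M.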

Other observations

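Genes of elastic fibres, the stretchable partners of collagen in the dermis, lay mostly below 0 while the fibrillar collagens lay mostly above. Of 14 measured, 10 had log2 ratios below 0 and 4 above, where 50.8% of all measured genes lay above. The median was -0.11, none was called, and the list summed to 134 FPKM in WT against 120 in L19M. Ratio intervals held 1 for 9 of the 14, lay below 1 for 4 (28.6%) and above 1 for 1. The shares of all measured genes with a fragment estimate were 24.4% below and 23.1% above. Of the 7 measured fibrillar genes, 3 had intervals that held 1 and 4 had intervals above it. The microfibril gene Mfap4 had 17 FPKM in WT against 12.5 in L19M, a ratio of 0.739 (0.630 to 0.867). Ltbp4, which binds latent TGF-beta and guides elastic fibre assembly, had 10.5 and 8.21 FPKM, and Fbln2, a fibulin, had 7.28 and 5.81 FPKM. Mfap5, also counted among fibroblast markers, had 2.11 and 2.99 FPKM with an interval that held 1. Eln, elastin itself and outside the rule for named genes, had 30.1 and 25.3 FPKM, a ratio of 0.842 (0.785 to 0.902). No test compared the lists.

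The letters GACGC, a core bound by FOXN1 in mouse thymic epithelium, occurred on either strand in the 250 bases before the start of 7 of 34 collagen genes (20.6%), against 22.6% of 27025 RefSeq genes. The measured members among them were Col27a1, Col4a2, Col4a5 and Col7a1, with FPKM ratios of 1.47, 1.26, 1.01 and 1.08. The other 3, Col19a1, Col25a1 and Col9a2, were below 1 FPKM. Their ratios were 2.03, 0.974 and 0.664, with intervals that held 1. Matching letters are not a binding site, and a link between them and the ratios was not tested.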
